A study of Brassica napus with 2 samples.

Results

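*IAA7* and *IAA14* encode Aux/IAA proteins, and the *Brassica napus* genes assigned to either *Arabidopsis* gene are described here in seedlings given indole-3-acetic acid (IAA), the main natural auxin. Members were the *Aux/IAA* genes whose *Arabidopsis* ortholog, in the orthology table of the study, is AT3G23050 (*IAA7*) or AT4G14550 (*IAA14*). The rule gave 6 of 119 *Aux/IAA* genes, with 4 orthologs of *IAA7* and 2 of *IAA14*, and all 6 had values among the 63193 genes measured. The rule used no expression value.

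RNA was sequenced from 2 libraries of 30-day-old seedlings, 1 after 3 h in 1 μM IAA and 1 control without IAA (0 μM), whose sample label names water and whose protocol names liquid medium. Seedlings of both libraries were grown on the same solid medium, and 10 seedlings were pooled for each, so that differences among plants within a pool were not measured. Neither a cultivar nor a transgene is named in the labels. Each condition has 1 library, so no difference below has a replicate check and all are differences between those libraries. In pooled seedlings, fewer cells of a type and less RNA per cell cannot be told apart. Genes outside the *Aux/IAA* family carry no names in the files used, so the tissue was not checked against markers.

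Aux/IAA proteins are short-lived repressors that bind auxin response factors and hold auxin-responsive genes silent. Auxin brings them to the TIR1/AFB receptors and so to degradation, and many *Aux/IAA* genes are themselves transcribed more when auxin rises, which closes a negative feedback loop. In *Arabidopsis*, stabilising mutations of IAA7 (AXR2) impair gravitropism and stem elongation, and those of IAA14 (SOLITARY-ROOT) block lateral root initiation. *B. napus* is an allotetraploid that carries A chromosomes from a *B. rapa* ancestor and C chromosomes from a *B. oleracea* ancestor, so an *Arabidopsis* gene can have several copies.

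On the Darmor-*bzh* genome v4.2, the *IAA7* ortholog *BnaA03.IAA.6* (BnaA03g36950D) lies on chromosome A03 from 18202683 to 18204981 and has 5 exons. *BnaA05.IAA.2* (BnaA05g16680D) lies on A05 from 11341560 to 11342921 with 4 exons. Its annotated homeolog *BnaC05.IAA.6* (BnaC05g29300D) spans C05 from 28069041 to 28081022 with 6 exons, and at 11982 bp it is far longer than the 1362 bp of *BnaA05.IAA.2*. The annotated protein of *BnaA05.IAA.2* is the shortest of the members, at 174 amino acids against 246 for its homeolog. The study lists it among the proteins with truncated domains. *BnaC01R.IAA.2* (BnaC01g43640D) lies on the unplaced sequence of C01 from 3197427 to 3199574, and has 5 exons. The *IAA14* ortholog *BnaA08.IAA.2* (BnaA08g05350D) lies on A08 from 5331490 to 5333723, and *BnaC08R.IAA.1* (BnaC08g47390D) on the unplaced sequence of C08 from 2188023 to 2190270, each with 5 exons. The orthology table does not pair these *IAA14* copies as homeologs.

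Expression was given as FPKM, fragments per kilobase of transcript scaled to the mapped fragments of the library. From the low values, which are multiples of what 1 fragment is worth, the depth was estimated at 18300000 fragments in the IAA library and 23600000 in the control library. These depths turn FPKM into estimated fragments, from which 95% exact intervals were calculated for counting error only. Fold differences below are the ratio of the FPKM values, and log2 fold changes were taken after 0.1 FPKM was added to both.

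The *IAA7* orthologs were expressed over a wide range. *BnaA03.IAA.6* was the most abundant member, at 117 FPKM in the IAA library and 62.8 FPKM in the control library, ranks 9 and 8 among the 93 *Aux/IAA* genes with values. It was 1.86-fold higher with IAA (95% exact interval from 1.74 to 1.99, log2 fold change 0.89), from 2060 and 1428 estimated fragments. *BnaA05.IAA.2* was at 50.5 FPKM in the IAA library and 27.2 FPKM in the control library, 1.85-fold higher with IAA (interval from 1.61 to 2.15, log2 fold change 0.89). The interval of *BnaA05.IAA.2* spans 2, and that of *BnaA03.IAA.6* ends at 1.99 with the estimated transcript and at 2.04 with the coding length, so that counting error does not settle on which side of 2-fold either lies.

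*BnaC05.IAA.6* was at 29.1 FPKM in the IAA library and 20.9 FPKM in the control library. This was 1.39-fold higher with IAA (log2 fold change 0.47). Its gene span makes the transcript length doubtful, and the interval ran from 1.31 to 1.47 with the estimated transcript and from 1.17 to 1.65 with the coding sequence alone. Under both lengths the whole interval lay above 1 and below 2.

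*BnaC01R.IAA.2* was close to the limit of detection, at 0.0645 FPKM in the IAA library and 0.0997 FPKM in the control library. These values correspond to 1 and 2 estimated fragments, and no fold is given because both are under the limit of 3 fragments. *BnaC07.IAA.1* (BnaC07g16810D), on C07 from 22814265 to 22816772, has no *Arabidopsis* ortholog in the table, but its annotated protein has the same length, mass, instability index and hydropathy as that of *BnaC01R.IAA.2*. It was at 0.676 FPKM in the IAA library, or 10 estimated fragments, and was listed at 0 FPKM in the control library. Against 3 fragments in the control library *BnaC07.IAA.1* was at least 4.30-fold higher with IAA, taking its 10 fragments as exact. With their counting error the interval of the ratio to the 0 fragments of the control library began at 2.89, and at 1.52 from the coding length. Fragments of such similar copies can be placed on either, and their sharing was not tested.

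The *IAA14* orthologs differed from each other in level and in fold. *BnaA08.IAA.2* was at 2.32 FPKM in the IAA library and 0.797 FPKM in the control library, from 36 and 16 estimated fragments. It was 2.91-fold higher with IAA, with an interval from 1.57 to 5.60, and its log2 fold change of 1.43 was the highest of the members. *BnaC08R.IAA.1* was at 5.42 FPKM in the IAA library and 6.31 FPKM in the control library, from 85 and 128 estimated fragments. Its ratio of 0.859 had an interval from 0.643 to 1.14, which includes 1, and at this depth no difference was detectable.

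**Figure D1:**
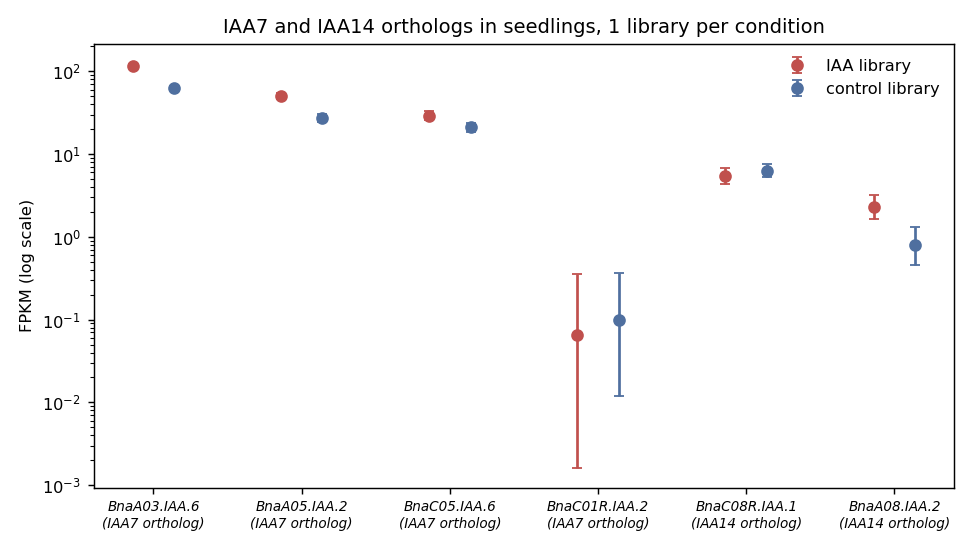
FPKM (log scale) of the 6 members in the IAA library and the control library, 1 library each; bars are 95% exact Poisson intervals of the estimated fragments (from the coding length for *BnaC05.IAA.6*) and cover counting error only. *BnaA03.IAA.6* is highest at 117 and 62.8 FPKM, and *BnaC01R.IAA.2* is lowest at 0.0645 and 0.0997 FPKM.

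The order of the levels was *BnaA03.IAA.6*, *BnaA05.IAA.2*, *BnaC05.IAA.6*, *BnaC08R.IAA.1*, *BnaA08.IAA.2* and *BnaC01R.IAA.2* in both libraries. FPKM is scaled per length, so that levels of different genes can be set side by side where the transcript length is sound. The length of *BnaC05.IAA.6* is doubtful, so its level, its place in the order and every share that includes it depend on the length used for its FPKM. The coding sequence of *BnaA05.IAA.2* is annotated as 521 bp, against 735 bp for *BnaC05.IAA.6*. Its level and shares likewise depend on that short gene model. The closest neighbours in the order were the A05 and C05 homeologs in the control library, where the lower end for *BnaA05.IAA.2* was 24.3 FPKM and the upper end for *BnaC05.IAA.6*, from the coding length, was 23.6 FPKM. In the IAA library *BnaC08R.IAA.1* had a lower end of 4.32 FPKM and *BnaA08.IAA.2* an upper end of 3.21 FPKM. Neighbours in the order had intervals that did not overlap in either library, with counting error as the only error included. With the coding length for both homeologs, those of the A05 and C05 copies met at 23.6 FPKM in the control library.

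Summed over copies, *IAA7* orthologs reached 196 FPKM in the IAA library and 111 FPKM in the control library, 1.77-fold higher with IAA. *BnaA03.IAA.6* made up 59.4% of this sum with IAA and 56.5% in the control library. *BnaA05.IAA.2* made up 25.7% with IAA and 24.5% in the control library, and *BnaC05.IAA.6* 14.8% with IAA and 18.9% in the control library. The sum and the shares of all copies carry the doubt about the length of *BnaC05.IAA.6*. *IAA14* orthologs summed to 7.74 FPKM in the IAA library and 7.11 FPKM in the control library. Their ratio was 1.09, and for the summed fragments the interval ran from 0.844 to 1.39, which includes 1. Within that sum the share of the A08 copy was 30.0% in the IAA library and 11.2% in the control library.

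**Figure D2:**
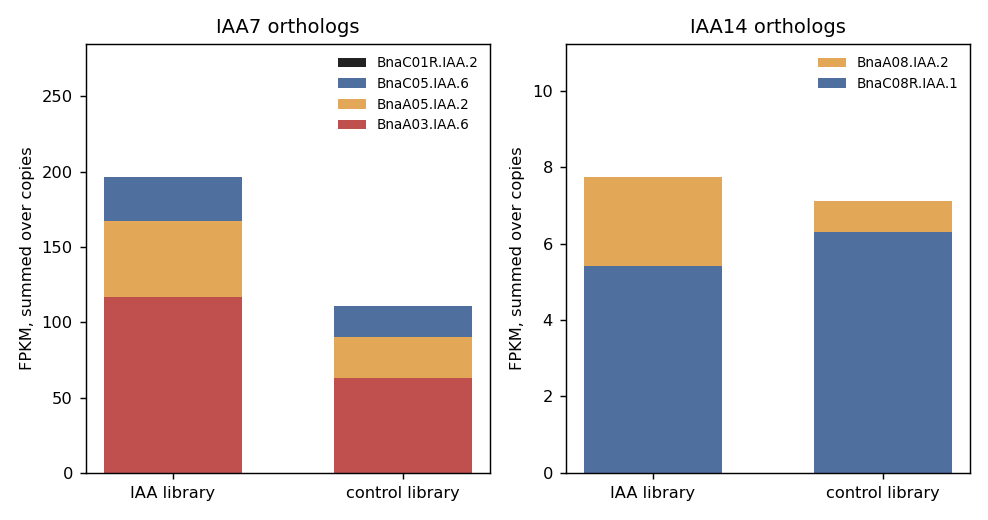
FPKM summed over the copies of *IAA7* (left) and of *IAA14* (right), stacked by copy, in the IAA library and the control library. The *IAA7* sum was 196 FPKM with IAA and 111 FPKM in the control library, while the *IAA14* sums were 7.74 and 7.11 FPKM; *BnaC01R.IAA.2* is too low to be seen.

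The fold differences of copies were compared directly, as the ratio of their ratios with an exact conditional 95% interval on estimated fragments, in 7 pairs. The fold of *BnaA05.IAA.2* was 1.33 times that of its homeolog *BnaC05.IAA.6* (interval from 1.14 to 1.56, and from 1.04 to 1.71 with coding lengths). In the sum of this pair the A05 copy held 63.4% of the FPKM in the IAA library and 56.5% in the control library. This share depends on the doubtful length of *BnaC05.IAA.6*. Estimated fragments are not divided by length, so their shares do not re-estimate it for another transcript length. From coding lengths the A05 copy held 51.1% of the fragments in the IAA library and 44.0% in the control library. With the estimated transcripts the A05 and C05 copies had 459 and 2459 fragments in the IAA library, and 319 and 2281 in the control library. The fold of *BnaA08.IAA.2* was 3.39 times that of *BnaC08R.IAA.1*, with an interval from 1.70 to 6.94. *BnaA03.IAA.6* and *BnaA05.IAA.2*, on different A chromosomes, had a ratio of 1.00 with an interval from 0.853 to 1.18. The fold of *BnaA03.IAA.6* was 1.34 times that of *BnaC05.IAA.6* (interval from 1.22 to 1.46). In each of these A and C comparisons the A copy had the higher fold, beyond counting error. The A03 and A05 copies were set against the same C copy, *BnaC05.IAA.6*. Among other A1 homeologs with both copies above the limit of 3 fragments, the A copy had the higher fold in most pairs. The C copy had the higher fold for *BnaC01.IAA.4*, *BnaC01.IAA.7* and *BnaC05.IAA.10*. The *IAA2* ortholog *BnaC01.IAA.4* had a fold of 2.79 (interval from 2.53 to 3.07) and its A homeolog *BnaA01.IAA.4* 2.38 (2.21 to 2.57). The *IAA17* ortholog *BnaA10.IAA.3* had a fold of 3.13 (2.64 to 3.72) and its C homeolog *BnaC05.IAA.3* 2.72 (2.19 to 3.36). In both examples the intervals overlap. Fragments that match several copies could have been divided among them when FPKM was calculated, and the part of this in the differences was not tested.

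Of the 6 members, 1 was at least 2-fold higher with IAA, *BnaA08.IAA.2*, against 4.22% of all genes. Its interval spans 2, and with a pseudocount of 1 FPKM its log2 fold change was 0.89 and 0 members passed 2-fold. By the same threshold 0 members were lower, against 8.68% of all genes. At 1.5-fold, 3 of the 6 members were higher, *BnaA03.IAA.6*, *BnaA05.IAA.2* and *BnaA08.IAA.2*, against 8.92% of all genes, and 0 were lower, against 19.3%. Weakly expressed genes weigh on these shares. Among the 15641 genes that reached 10 FPKM in either library, 5.54% were 1.5-fold or more higher with IAA and 5.79% lower, while 2.03% passed 2-fold upward and 1.63% downward. Of the 3 members at that level, 2 were 1.5-fold or more higher, 0 passed 2-fold and 0 were lower by either threshold. The median log2 fold change of the 6 members was 0.68, beside -0.13 over all genes. Over the 5 members above the limit of 3 fragments it was 0.89. Over the 15641 genes that reached 10 FPKM in either library, a level held by 3 members, the median was -0.04.

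Of the *IAA7* orthologs, 3 lie within 50 kb of an *IAA2* ortholog, an *Aux/IAA* gene of the same subgroup. *BnaA03.IAA.5*, separated by 19501 bp from *BnaA03.IAA.6*, was at 186 FPKM in the IAA library and 58.8 FPKM in the control library. *BnaA05.IAA.3*, at 41545 bp from *BnaA05.IAA.2*, was at 192 FPKM with IAA and 73.1 FPKM in the control library. *BnaC05.IAA.7*, at 40637 bp from *BnaC05.IAA.6*, was at 333 FPKM with IAA and 139 FPKM in the control library. The *IAA7* ortholog had the smaller fold in each of these neighbouring pairs. The fold of *BnaA03.IAA.6* was 0.588 times that of *BnaA03.IAA.5* (interval from 0.532 to 0.649). For *BnaA05.IAA.2* and *BnaA05.IAA.3* this was 0.708 (interval from 0.603 to 0.832), and for *BnaC05.IAA.6* and *BnaC05.IAA.7* 0.581 (interval from 0.537 to 0.629). The remaining *IAA7* ortholog, *BnaC01R.IAA.2*, lies 34716 bp from *BnaC01R.IAA.1*, which was also at the limit, with 1 estimated fragment in the IAA library and 3 in the control library.

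The members belong to subgroup A1 of the family. Of the other 25 A1 genes with values, 17 were at least 2-fold higher with IAA, or 14 with a pseudocount of 1 FPKM. The median log2 fold change of the 25 genes was 1.39, or 1.41 over the 24 above the limit of 3 fragments. The *IAA17* and *IAA16* orthologs, whose *Arabidopsis* genes are close relatives of *IAA7* and *IAA14*, had median log2 fold changes above and below that of the members, with ranges that overlapped theirs. *IAA17* (AXR3) acts in root gravitropism and root hair growth in *Arabidopsis*, and 4 of its 6 orthologs were at least 2-fold higher, with a median log2 fold change of 1.32, or 1.43 over the 5 above the limit of 3 fragments. *BnaA09.IAA.6*, the *IAA17* ortholog with the highest fold, was at 90.7 FPKM in the IAA library and 17.9 FPKM in the control library. None of the 4 *IAA16* orthologs was at least 2-fold higher or lower, and their median log2 fold change was 0.10. *BnaC05.IAA.10*, the most abundant of these, was at 161 FPKM in the IAA library and 119 FPKM in the control library, and *BnaA01.IAA.8* was at 87.2 FPKM with IAA and 101 FPKM in the control library. Whether these groups differ could not be tested with 1 library per condition.

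**Figure D3:**
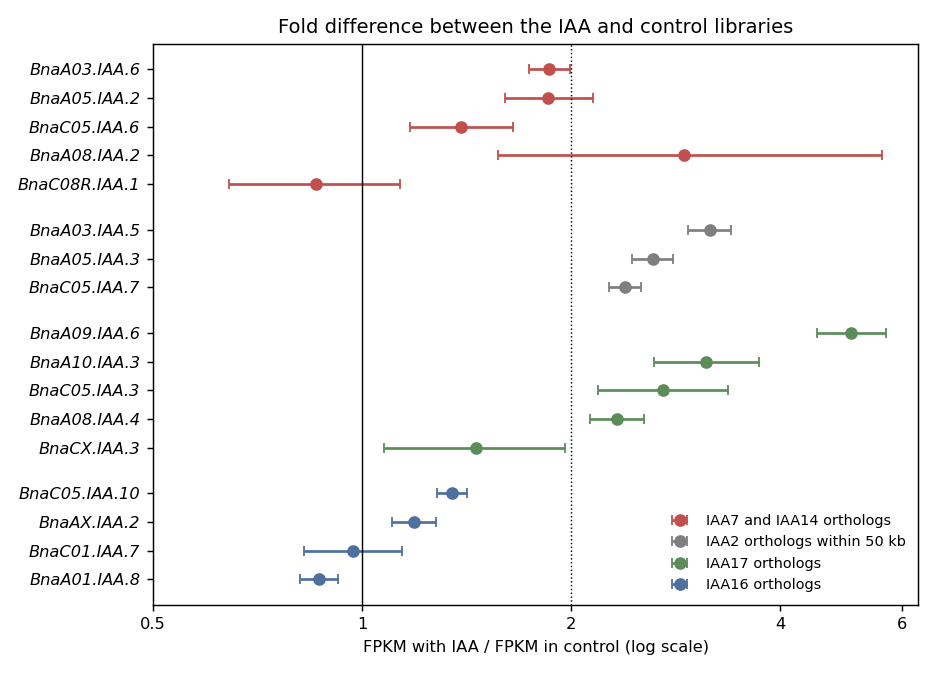
FPKM in the IAA library over FPKM in the control library (log axis) for the 5 members above 3 estimated fragments, the *IAA2* orthologs within 50 kb, and the *IAA17* and *IAA16* orthologs above that limit; bars are 95% exact binomial intervals of the estimated fragments (from the coding length for *BnaC05.IAA.6*), with lines at 1 and 2 (dotted). The *IAA7* orthologs lie between 1.39 and 1.86, below their *IAA2* neighbours, and *BnaA08.IAA.2* at 2.91 has the widest bar.

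Over the 2 libraries, similarity of pattern was measured as the Euclidean distance of log2(FPKM + 0.1) to every other *Aux/IAA* gene, which weighs level and difference together. The genes nearest to *BnaA03.IAA.6* were the *IAA2* ortholog *BnaA01.IAA.4* (distance 0.31) and the *IAA9* ortholog *BnaA06.IAA.4* (0.57). *BnaA05.IAA.2* lay nearest to *BnaA09.IAA.2* (0.45) and *BnaA09.IAA.7* (0.51), and its homeolog *BnaC05.IAA.6* nearest to the *IAA4* orthologs *BnaA09.IAA.3* (0.31) and *BnaCX.IAA.6* (0.35). *BnaA08.IAA.2* had the closest match, the *IAA1* ortholog *BnaA08R.IAA.1* (0.14), at 2.29 FPKM in the IAA library and 0.884 FPKM in the control library, followed by *BnaA09.IAA.4* (0.49). For *BnaC08R.IAA.1* the nearest were *BnaA01.IAA.2* (0.35) and *BnaC06.IAA.3* (0.47). With 2 points per gene this describes levels and little else.

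The surroundings of each member were examined through the 10 measured genes with the nearest identifiers on each side. Genes of the family were set aside, and the others were kept if they reached 1 FPKM in either library. Around *BnaA03.IAA.6* the log2 fold changes of 12 such genes lay between -0.85 and 0.33, and around *BnaA08.IAA.2* those of 13 genes between -0.97 and 0.28. In both regions 0 of these genes reached the fold change of the member. Around *BnaA05.IAA.2* 14 genes ranged from -1.11 to 0.83, just below the 0.89 of the member. The highest, BnaA05g16650D, was at 49.99 FPKM in the IAA library and 28.1 FPKM in the control library. Around *BnaC05.IAA.6*, 2 of 14 genes had a higher fold change than the member, of which BnaC05g29530D was at 5.24 FPKM with IAA and listed at 0 FPKM in the control library. *BnaC08R.IAA.1* lay among 13 genes from -0.57 to 0.50. Around *BnaC01R.IAA.2* 6 of 19 genes outside the family reached 1 FPKM, a share to be read beside 69.6% of all genes. On unplaced sequence, consecutive identifiers need not be neighbours in the plant.

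**Figure D4:**
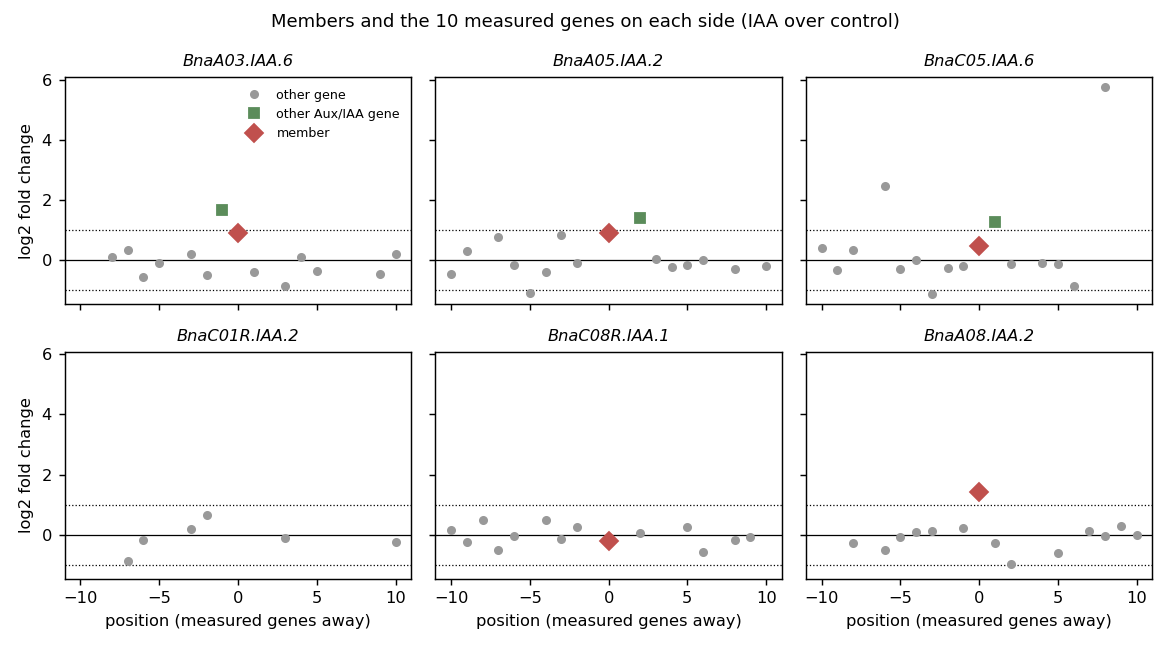
Log2 fold change (IAA over control) of each member and of the 10 measured genes on each side in the order of identifiers, for genes that reached 1 FPKM in either library; dotted lines mark a 2-fold difference, and *BnaC01R.IAA.2* itself is not drawn because it is under the limit of 3 fragments. *BnaA03.IAA.6* and *BnaA05.IAA.2*, both at 0.89, and *BnaA08.IAA.2* at 1.43 lie above every flanking gene drawn from outside the family.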

How the data were processed

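The authors made TruSeq libraries, aligned the reads by HISAT2 2.0.4 against Darmor-*bzh* v4.2, and deposited the FPKM that Cufflinks 2.2.1 computed for each gene. The tool bcl2fastq 2.18 is also named in the submitters' processing notes. Read counts were not used here. FPKM is scaled within each library, and Cufflinks can divide fragments between similar genes. The members and lists were chosen with earlier results of these data known.

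Log2 fold changes were calculated after adding 0.1 FPKM, in scipy 1.17.1, pandas 2.3.3 and numpy 2.4.6 under Python 3.11.15, and plotted with matplotlib 3.10.9. No test of the conditions was made. Depth and mean fragment length (195 bp in both libraries) were those that made the low values of *Aux/IAA* genes whole fragments, taking the coding sequence plus the gene outside the reading frame as the transcript. They rested on 7 genes in the IAA library and 10 in the control library. All 17 genes with up to 20 fragments in the IAA library and all 23 in the control library lay within 0.2 of a whole fragment, those used in the fit included. Intervals are Clopper-Pearson (fold), Poisson (level) or conditional (ratio of folds) at 95%. The scripts were tested on simulated data.

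Named genes were the members, *Aux/IAA* genes within 50 kb, genes with identical annotated protein properties, and the *IAA16* and *IAA17* orthologs. The 2 genes nearest in pattern to each member that reached 1 FPKM in either library were also named. Flanking genes, *BnaC01.IAA.4* and *BnaC03.IAA.5* fall outside these rules and were named after their values were seen. Alternatives were other pseudocounts, filters, scalings, fold thresholds and transcript lengths.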

Additional observations from a re-analysis of the deposited data

How the results depend on the processing

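No paired analysis was possible because the conditions were represented by 1 library apiece. The number of members at least 2-fold higher with IAA was 1, but 0 with a pseudocount of 1 FPKM, 3 at a fold threshold of 1.5 and 0 at a threshold of 4. Of the other A1 genes 17 were at least 2-fold higher, but 14 with a pseudocount of 1 FPKM. At a threshold of 4, 5 of the other A1 genes and 1 of the *IAA16* and *IAA17* orthologs were higher. Those 5 include *BnaC03.IAA.5*, with 4 estimated fragments in the IAA library and 1 in the control library, and *BnaC07.IAA.1*, with 10 and 0. Centring moved the IAA library up by 0.09 on the log2 scale and the log2 fold change of *BnaC05.IAA.6* to 0.56, outside its counting interval from the transcript length. The other 38 recomputed values of members stayed within their intervals. Filters only drop genes, so the values recomputed under them could not move. The values of *BnaC01R.IAA.2* were held against an interval from 0.0109 to 12.4, too wide to be informative. Taken as fragments from coding lengths instead of FPKM, the share of *BnaA05.IAA.2* in the sum with *BnaC05.IAA.6* was 51.1% in the IAA library and 44.0% in the control library, because the shorter coding sequence gives fewer fragments. Such a share weighs each copy by its length and is not the FPKM share under another transcript length. The percentage of all genes at least 2-fold higher was 1.05 with a pseudocount of 1 FPKM, 6.82 with 0.01 FPKM, 2.51 among genes reaching 1 FPKM in either library, 1.66 among those reaching 0.5 FPKM in both, 8.92 at a threshold of 1.5 and 1.15 at 4. For genes lower the values in that order were 1.38, 14.4, 4.86, 3.11, 19.3 and 1.84. Leaving out genes with 3 or fewer estimated fragments in both libraries, an alternative chosen after seeing the data, gave the members a median log2 fold change of 0.89, beside 0.68 with all 6. Depth limits *BnaC01R.IAA.2*, for which no fold can be given, and *BnaA08.IAA.2*, whose interval is wide.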

Other observations

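Other orthologous sets of subgroup A1 were measured in the same libraries. All 6 *IAA2* orthologs, all 3 *IAA3* orthologs with values and both *IAA1* orthologs were at least 2-fold higher with IAA. Of all genes, 4.22% passed this threshold. The median log2 fold changes of these sets were 1.43, 2.03 and 1.48. The *IAA1* ortholog *BnaA08R.IAA.1* had 28 estimated fragments in the IAA library and 14 in the control library, and its interval from 1.31 to 5.30 spans 2. *IAA3* (SHY2) controls root meristem size in *Arabidopsis*. Of the 2 *IAA4* orthologs, 0 reached 2-fold, and their log2 fold changes of 0.63 for *BnaCX.IAA.6* and 0.79 for *BnaA09.IAA.3* lay between those of the *IAA7* orthologs *BnaC05.IAA.6* and *BnaA05.IAA.2*.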
